A study of Mus musculus with 26 samples.

Results

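The comparison described here is MRTX1719 against DMSO in MC38/gp100 cells with Mtap knocked out (KO), with 3 libraries a group. These are 6 of the 17 MC38 libraries and of the 26 libraries of the whole series, and they were taken by their labels alone. Cells were exposed to 0.5 uM MRTX1719 or to DMSO for 5 days, and poly(A) RNA was sequenced. MC38 is a mouse colon adenocarcinoma line, and every MC38 group, controls included, carries the melanoma antigen gp100. Other MC38 groups used beside it are KO cells with 0.5 uM GSK3326595 for 5 days (3 libraries), wild-type cells with 0.5 uM MRTX1719 for 5 days (2 libraries, replicates 1 and 3) and wild-type cells with DMSO (3 libraries). Wild-type cells with 0.5 uM GSK3326595 for 5 days (3 libraries) entered the fit of all 17 MC38 libraries but are not described. The labels do not say whether the KO line is a single clone, how the edit was made, or whether the replicates were grown separately. If they were not, a p-value covers technical variation between libraries and nothing more.

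PRMT5 places symmetric methyl groups on arginines of many proteins, among them the Sm proteins of the spliceosome and histones. Mtap encodes methylthioadenosine phosphorylase, which clears methylthioadenosine (MTA), a by-product of polyamine synthesis. Where Mtap is lost MTA builds up and occupies part of PRMT5. MRTX1719 binds PRMT5 together with MTA, whereas GSK3326595 inhibits PRMT5 without a need for MTA. The comparison addresses how an MTA-cooperative inhibitor changes the transcriptome of tumour cells labelled as Mtap KO.

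Levels below are CPM, counts scaled to a fixed total per library after TMM correction of the library size, given for replicates 1, 2 and 3 or as mean ± SD (n = 3). Fold changes are log2 values with their standard error. Each edgeR adjusted p comes from edgeR's quasi-likelihood test, corrected by Benjamini and Hochberg's method across every gene tested, and a gene that changed, rose or fell had an adjusted p under 0.05.

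The targeted gene was read first. Mtap (ENSMUSG00000062937.8) stood at 203, 206 and 205 CPM with MRTX1719, against 264, 274 and 276 CPM with DMSO, in KO cells. All 6 libraries lay below the wild-type groups, which averaged 399 ± 0.465 CPM with MRTX1719 (n = 2) and 393 ± 4.61 CPM with DMSO, but Mtap RNA was far from absent. The counts run over the whole gene and would include any RNA still made from an edited allele, which makes them a partial check of the KO label. Mtap was lower with MRTX1719 than with DMSO (-0.41 ± 0.023, edgeR adjusted p = 2.60e-35). Prmt5 (ENSMUSG00000023110.13), the target of the inhibitor, was at 110.0, 110.0 and 109.7 CPM with MRTX1719 and 98.6, 97 and 96.7 CPM with DMSO, without overlap, a rise of 0.17 ± 0.030 (edgeR adjusted p = 1.67e-07).

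The 6 libraries held 19302768 to 27786226 counts. The tissue label was set against cell type markers. Of 21 epithelial genes 10 were under the filter on low counts, among them the intestinal genes Cdx2, Vil1 and Krt20, and Epcam had 0 counts in all 6 libraries, which allows up to 0.108 to 0.155 CPM a library. Genes known from fibroblasts were abundant: the collagen gene Col3a1 and the proteoglycan gene Dcn averaged 5041 and 1186 CPM under DMSO. Of 9 leukocyte markers 6 were under the filter, 0 of the other 3 changed, and their summed level was 1.69 to 1.93 CPM with MRTX1719 and 1.5 to 1.86 CPM with DMSO. Lgals4, a galectin gene of intestinal epithelium on the epithelial list, was above the filter, at 14.1, 16 and 14.9 CPM with MRTX1719 and 16.8, 17.2 and 16.9 CPM with DMSO (-0.18 ± 0.070). Tjp1 and Jup of the same list were more abundant. Tjp1 had 17755 counts over the MRTX1719 libraries and 17406 over the DMSO libraries, and Jup had 8415 and 8347. Markers of the labelled tissue were thus in part absent and in part present. In bulk RNA, fewer cells of a type and less RNA per cell cannot be told apart.

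The response was broad and mostly small. Of 14835 genes tested 10464 changed (70.5%), with 5486 higher (37.0%) and 4978 lower (33.6%) with MRTX1719. The median absolute log2 fold change was 0.35, and the median of all genes was 0.022. At least 2-fold changes were called upward for 669 genes (4.51%) and downward for 1110 (7.48%). At 4-fold or more the numbers were 146 (0.984%) and 161 (1.09%). The 3 libraries of one group lay wholly above the 3 of the other for 5621 genes with MRTX1719 higher (37.9%) and 5081 with MRTX1719 lower (34.3%). With so high a background, whether a given gene passed says little by itself. Gene groups below are read by their split against 37.0% higher and 33.6% lower, and by their median log2 fold change against 0.022. Upper quartile scaling, an alternative given for some lists, moved this background to 4436 genes higher and 5942 lower, with a median of -0.068.

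**Figure D1:**
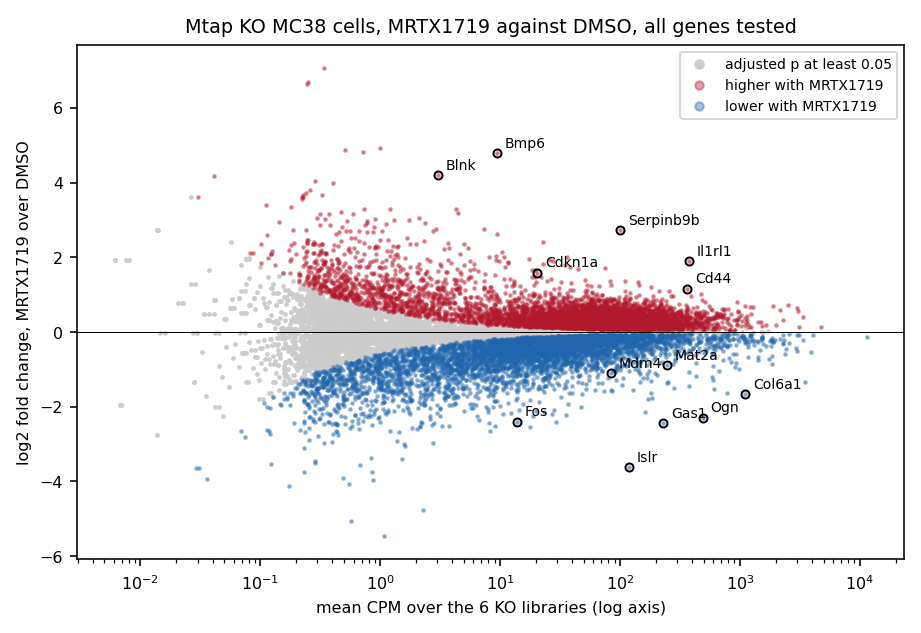
Each point is 1 of the genes tested in Mtap KO MC38 cells, with its mean CPM over the 6 libraries on a log axis and its log2 fold change, MRTX1719 over DMSO; red and blue points passed the threshold of 0.05 upward and downward. Strong changes run both ways at all but the highest levels, with Bmp6 at 4.78 and Islr at -3.62, and the wide grey wedge at the left is where low counts limit the test.

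Among genes with at least 5 CPM in the higher group and no overlap between libraries, Bmp6 (ENSMUSG00000039004.7) rose most. This gene of a bone morphogenetic protein was at 16.6, 19.7 and 18.1 CPM with MRTX1719 and at 0.513, 0.688 and 0.745 CPM with DMSO, a log2 fold change of 4.78 ± 0.15 (edgeR adjusted p = 2.42e-63). The 2 groups were far apart in every library, and the gene was close to silent under DMSO. Blnk, which encodes an adaptor of B cell receptor signalling, was at 5.9, 5.41 and 5.93 CPM with MRTX1719 and 0.462, 0.202 and 0.29 CPM with DMSO (4.2 ± 0.24). The stromelysin gene Mmp10 stood at 7.75 ± 0.338 CPM with MRTX1719 and 0.783 ± 0.183 CPM with DMSO (3.29 ± 0.18). Both followed the pattern of Bmp6, from a very low DMSO level.

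The other genes of the 10 largest increases were Usp17la (3.19 ± 0.17), a deubiquitinase of a family with near-identical copies whose reads may be shared, Rasgef1a (2.75 ± 0.13), Emilin2 (2.74 ± 0.20), the serpin gene Serpinb9b (2.73 ± 0.037), Tigit (2.63 ± 0.11), Klhl30 (2.41 ± 0.076) and the synapsin gene Syn1 (2.37 ± 0.17). Syn1 overlaps the tested genes Araf and Timp1 in RefSeq, so part of its reads may be shared. Serpinb9b stood at 172, 175 and 173 CPM with MRTX1719 and 25.7, 26.1 and 26.5 CPM with DMSO. Like Usp17la, Serpinb9b has close relatives. Tigit, an inhibitory receptor gene usually read in T and NK cells, was at 17, 15 and 16.9 CPM with MRTX1719 and 2.41, 3.16 and 2.24 CPM with DMSO. This was in cells whose leukocyte markers were at or near 0.

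Islr (ENSMUSG00000037206.16), a cell surface protein gene also called meflin that marks mesenchymal cells, fell most among genes with at least 5 CPM in the higher group and no overlap between libraries. It had 18, 18.6 and 17.1 CPM with MRTX1719 and 216, 224 and 219.6 CPM with DMSO, a log2 fold change of -3.62 ± 0.040 (edgeR adjusted p = 2.88e-119). Every DMSO library was far above every treated one. Gas1, a growth arrest gene and Hedgehog co-receptor, was at 73.8, 70.8 and 70.0 CPM with MRTX1719 and 399.7, 376 and 393 CPM with DMSO (-2.44 ± 0.029). The remaining 8 of the 10 largest decreases were the BMP antagonist gene Chrd (-2.64 ± 0.11), the AP-1 genes Fosb (-2.54 ± 0.072) and Fos (-2.4 ± 0.078), the retinaldehyde dehydrogenase gene Aldh1a1 (-2.52 ± 0.19), the corepressor gene Tle2 (-2.52 ± 0.11), thrombopoietin, Thpo (-2.51 ± 0.16), Hyi (-2.43 ± 0.11) and the latrophilin gene Adgrl1 (-2.41 ± 0.058). Chrd and Thpo overlap each other in the RefSeq annotation, so part of their reads may be shared.

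Among genes with a mean of at least 200 CPM and no overlap between libraries, the largest increases were in Il1rl1, Cd44, Ptgs2, Lgals3 and Ermp1. Il1rl1, the receptor of interleukin 33, was at 588, 593 and 594 CPM with MRTX1719 and 154, 161 and 165 CPM with DMSO (1.89 ± 0.024, edgeR adjusted p = 3.27e-112). The hyaluronan receptor gene Cd44 stood at 495, 497 and 514 CPM with MRTX1719 and 226, 222 and 229.8 CPM with DMSO (1.15 ± 0.022). Cyclooxygenase 2, Ptgs2, was at 1.1 ± 0.024, galectin 3, Lgals3, at 1.02 ± 0.021 and the peptidase gene Ermp1 at 0.96 ± 0.024. The most negative abundant genes were Gas1 and 4 matrix genes, described next.

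**Figure D2:**
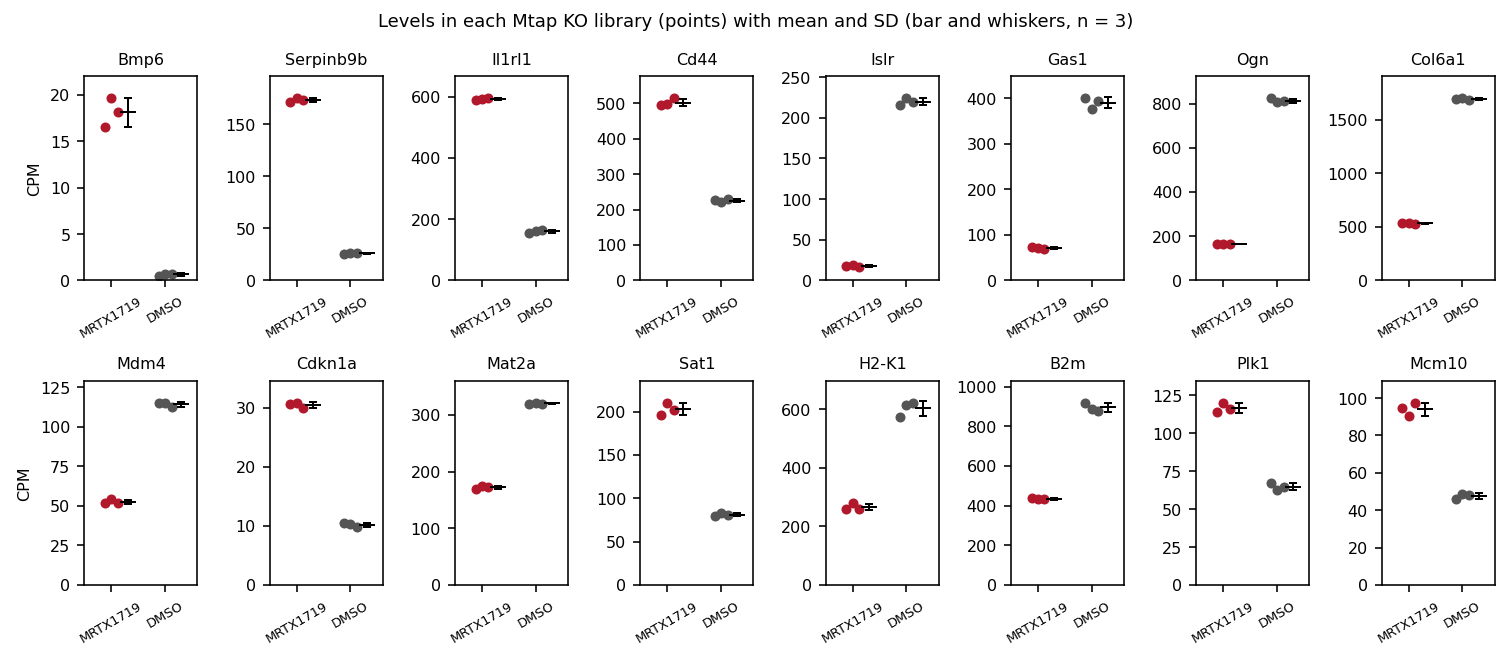
CPM of 16 genes in each of the 6 Mtap KO libraries (points), MRTX1719 left and DMSO right, with the mean and SD (bar and whiskers, n = 3) and each axis starting at 0. The 16 genes were picked from those that changed, and in all panels the treated and DMSO libraries stand apart. Replicates of a group lie close together.

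Genes of the extracellular matrix moved both ways, and several collagen chains fell steeply. Of 34 mesenchymal and matrix genes tested 16 rose and 11 fell, with a median of 0.10. Upper quartile scaling turned this split to 15 higher and 16 lower, where all genes tested had 4436 higher and 5942 lower. A filter at 1 CPM turned the median to -0.01, so the list has no set direction. Their summed level was 24100 to 24300 CPM with MRTX1719, against 29300 to 30100 CPM with DMSO. Col6a1, a chain of collagen VI, was at 535, 537 and 529.9 CPM with MRTX1719 and 1688, 1698 and 1681 CPM with DMSO (-1.66 ± 0.019, edgeR adjusted p = 6.53e-118). Its partner chain Col6a2 averaged 386 ± 8.94 CPM with MRTX1719 and 1189 ± 14.1 CPM with DMSO (-1.62 ± 0.020). Col3a1, the chain of collagen III, fell to 1981, 1984 and 1973 CPM with MRTX1719, against 4818, 5184 and 5122 CPM with DMSO (-1.35 ± 0.018), and the collagen I chain gene Col1a2 was at -0.86 ± 0.018.

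Other secreted and pericellular matrix genes fell with them. Ogn, the small proteoglycan osteoglycin, had 167, 165 and 164 CPM with MRTX1719 and 824, 806 and 810.0 CPM with DMSO (-2.3 ± 0.024), and the perlecan gene Hspg2 had 312 ± 6.76 CPM with MRTX1719 and 901 ± 11.8 CPM with DMSO (-1.53 ± 0.021). Both had DMSO libraries far above the treated ones. Of 7 fibroblast and endothelial markers tested, which share Col3a1 with the matrix list, 1 rose and 5 fell (median -0.84), and their summed level was 2840 to 2870 CPM with MRTX1719 and 6380 to 6740 CPM with DMSO. Dcn (-0.84 ± 0.019), the PDGF receptor gene Pdgfra (-1.09 ± 0.026) and lumican, Lum (-0.89 ± 0.082), were among those that fell. Cdh5, a cadherin of endothelium, rose at a low level, to 1.6, 1.55 and 2.12 CPM with MRTX1719 against 0.565, 0.405 and 0.414 CPM with DMSO (1.93 ± 0.29).

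Keratin 8, an intermediate filament gene of simple epithelia, rose in a line in which 10 of the 21 epithelial genes were under the filter. Krt8 had 57.5, 58.3 and 59.3 CPM with MRTX1719 and 14.2, 14 and 15.1 CPM with DMSO (2.01 ± 0.052, edgeR adjusted p = 5.78e-73). Its partner Krt18 was under the filter, with 29 counts over the treated libraries and 1 over the DMSO libraries, a ratio of 27.7 with a 95% counting interval of 4.59 to 1130, which covers counting error only. Among 11 epithelial genes tested 4 rose and 3 fell (median 0.35). Grhl2 rose (1.92 ± 0.55) and Krt7 fell (-0.85 ± 0.24), both at low levels, as was Krt19. Krt19 rose by 1.29 ± 0.48 (edgeR adjusted p = 0.013) but did not pass without MRTX1719 replicate 1 (1.04, edgeR adjusted p = 0.083). A filter at 1 CPM left 1 epithelial gene higher and 2 lower, with a median of -0.02. The median was -0.01 without MRTX1719 replicate 3, 0.63 without MRTX1719 replicate 2 and -0.05 in the 6 libraries alone, so the list has no set direction either. Of 8 transcription factors of epithelial-mesenchymal transition 5 rose and 2 fell, or 3 rose with upper quartile scaling or no filter, with Twist2 at 0.76 ± 0.047, Snai1 at 0.44 ± 0.072 and Zeb1 at -0.32 ± 0.035.

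Genes of TGF-beta and BMP signalling split, with 6 higher and 10 lower of 22 tested (median -0.06). Among ligands, Bmp6 rose as above, while Inhba, the activin A subunit gene, fell to 140.2, 141 and 143 CPM with MRTX1719, against 377, 346 and 349 CPM with DMSO (-1.34 ± 0.026, edgeR adjusted p = 7.18e-69). Among antagonists, Grem1 rose (0.40 ± 0.022) from an already high level, to 541 ± 5.64 CPM with MRTX1719 against 411 ± 9.67 CPM with DMSO. Chordin, which binds BMPs outside the cell, fell as given above. The SMAD corepressor gene Skil rose by 0.46 ± 0.027.

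Mdm4, which encodes an inhibitor of p53, fell with MRTX1719, and the p53 target Cdkn1a rose. Mdm4 was at 52, 54.2 and 52.1 CPM with MRTX1719 and 115, 115 and 112 CPM with DMSO (-1.11 ± 0.035, edgeR adjusted p = 8.35e-63). Gene counts do not separate transcript forms, so splicing of Mdm4 was not measured. The p53 ligase gene Mdm2 rose slightly (0.28 ± 0.036), as did the deubiquitinase gene Usp7 (0.17 ± 0.026), and the p53 relative Trp63 fell at a low level, to 0.865 ± 0.161 CPM with MRTX1719 against 4.71 ± 0.219 CPM with DMSO (-2.44 ± 0.19). Of the 6 genes of this list tested 3 rose and 3 fell.

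Cdkn1a, the cyclin-dependent kinase inhibitor p21, stood at 30.6, 30.8 and 29.9 CPM with MRTX1719 and 10.4, 10.3 and 9.77 CPM with DMSO (1.59 ± 0.063, edgeR adjusted p = 3.83e-51). Over 31 p53 targets tested 15 rose and 12 fell (median 0.18), so the list moved both ways at shares of 48.4% and 38.7%. The polo-like kinase gene Plk2 (0.52 ± 0.020), the death receptor gene Tnfrsf10b (0.71 ± 0.043) and the stress gene Gadd45a (0.47 ± 0.033) rose. Gdf15, a stress cytokine gene chosen here after its values were seen, rose at a low level, to 1.23, 1.36 and 1.4 CPM with MRTX1719 against 0.205, 0.121 and 0.0828 CPM with DMSO (3.29 ± 0.41), and Ckap2 fell (-0.45 ± 0.038). Cell cycle inhibitors and G1 cyclins had 9 higher and 7 lower of 19 tested (median 0.01): the G1 kinase gene Cdk4 (-0.33 ± 0.024), the transcription factor gene E2f1 (-0.73 ± 0.059) and the pocket protein gene Rbl2 (-0.32 ± 0.037) fell. E2f1 had 16.9, 17.4 and 18.9 CPM with MRTX1719 and 27.3, 31 and 29.5 CPM with DMSO.

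Genes of mitosis rose together, in the same libraries in which Cdkn1a was higher. Of 30 mitosis genes 26 rose (86.7%) and 3 fell (10.0%), with a median of 0.38 and log2 fold changes from -0.12 to 0.85. Anln, the cytokinesis scaffold anillin, had 463, 459.9 and 467 CPM with MRTX1719 and 322, 318 and 322 CPM with DMSO (0.53 ± 0.021, edgeR adjusted p = 2.14e-51). The polo-like kinase gene Plk1 was at 114, 120.1 and 116 CPM with MRTX1719 and 67.4, 62.9 and 64.4 CPM with DMSO (0.85 ± 0.035). Ect2, a guanine nucleotide exchange factor of cytokinesis, averaged 285 ± 3.21 CPM with MRTX1719 and 190.0 ± 2.76 CPM with DMSO (0.59 ± 0.024), and Cdca8, the borealin subunit of the chromosomal passenger complex, was at 0.82 ± 0.035. The spindle checkpoint gene Mad2l1 fell by a little (-0.12 ± 0.035).

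The promoters of the 3 mitosis genes with the smallest p are shown because many mitosis genes are known to carry a cell cycle homology region near their start. They are RefSeq promoters of build GRCm38.p6, with 250 bases before and 50 after the start, on the gene's strand, while the counts are of the GRCm39 build. Capitals mark TTTGAA or its reverse complement, searched on both strands; no other motif was searched.
Anln, chr9:22389157-22389456, minus strand: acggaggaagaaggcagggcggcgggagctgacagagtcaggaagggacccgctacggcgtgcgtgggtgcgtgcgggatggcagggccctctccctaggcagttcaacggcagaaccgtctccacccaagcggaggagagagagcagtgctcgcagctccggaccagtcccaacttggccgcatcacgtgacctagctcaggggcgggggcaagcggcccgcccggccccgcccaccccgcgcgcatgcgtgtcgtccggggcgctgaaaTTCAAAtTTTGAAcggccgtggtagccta
Plk1, chr7:122159185-122159484, plus strand: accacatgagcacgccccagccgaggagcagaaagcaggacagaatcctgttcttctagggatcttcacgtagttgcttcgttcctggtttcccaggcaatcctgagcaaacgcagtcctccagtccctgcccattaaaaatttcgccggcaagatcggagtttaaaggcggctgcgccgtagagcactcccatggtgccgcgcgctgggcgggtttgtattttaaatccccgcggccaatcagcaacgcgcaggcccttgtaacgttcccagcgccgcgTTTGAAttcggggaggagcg
Ect2, chr3:27153829-27154128, minus strand: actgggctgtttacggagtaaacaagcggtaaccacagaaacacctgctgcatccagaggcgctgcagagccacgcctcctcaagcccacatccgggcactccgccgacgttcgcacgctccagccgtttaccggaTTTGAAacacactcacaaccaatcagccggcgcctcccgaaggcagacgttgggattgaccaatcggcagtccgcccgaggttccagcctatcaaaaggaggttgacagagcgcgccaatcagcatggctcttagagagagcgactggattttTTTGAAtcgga
Anln has matches that begin 21 and 28 bases after the start and Plk1 has 1 that begins 30 bases after it. Ect2, whose first of 2 promoters in the RefSeq table is shown, has matches 114 bases before and 39 after. The letters occur in 19 of 26 mitosis promoters found in the table (73.1%), against 12.3% of 10299 promoters of genes tested and 18.1% of 27025 promoters in all. Among the mitosis genes that rose the share was 16 of 22 (72.7%). A match is a description of these letters in the window and not a site of binding.

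Replication genes moved with the mitosis genes. Of 34 tested 24 rose (70.6%) and 7 fell, with a median of 0.38; upper quartile scaling gave 22 higher and 10 lower. Mcm10, a replication initiation factor, was at 94.5, 90.6 and 97.5 CPM with MRTX1719 and 45.8, 48.8 and 48 CPM with DMSO (0.98 ± 0.036, edgeR adjusted p = 1.28e-54). Subunits of the replicative helicase rose as well: Mcm3 (0.65 ± 0.025), Mcm4 (0.69 ± 0.027) and Mcm6 (0.59 ± 0.023). Gins4, of the GINS complex of the same helicase, fell (-0.31 ± 0.041). Homologous recombination and Fanconi genes were split near the background, with 14 higher and 10 lower of 30 (median 0.07). Bard1 (0.89 ± 0.056), the nuclease gene Exo1 (0.59 ± 0.046) and the helicase gene Blm (0.54 ± 0.045) rose, and the nuclease gene Mre11a fell (-0.57 ± 0.045).

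PRMT5 partners and the Sm proteins it acts on changed modestly. Of 5 methylosome genes 3 rose and 2 fell: Coprs, a histone adaptor of PRMT5, had 18.1, 18.2 and 15.6 CPM with MRTX1719 and 10.3, 11.2 and 10.7 CPM with DMSO (0.69 ± 0.077), Clns1a, the pICln adaptor, was at 0.28 ± 0.033, and the adaptor Riok1 fell (-0.20 ± 0.040). Spliceosomal snRNP core and assembly genes rose at 12 and fell at 3 of 22 tested (median 0.14). Among them were the assembly factor genes Smn1 (0.46 ± 0.041), Ddx20 (0.41 ± 0.041) and Strap (0.23 ± 0.024) and the Sm protein gene Snrpd1 (0.38 ± 0.033), while the U1 protein gene Snrpa fell (-0.18 ± 0.033). Of 9 other arginine methyltransferase genes 2 rose and 5 fell (median -0.07), with Prmt2 at 0.38 ± 0.046, Carm1 at -0.29 ± 0.033 and Prmt3 at -0.33 ± 0.044.

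Splicing regulators leaned downward. Of 28 genes of SR proteins, hnRNPs and CLK kinases 8 rose and 13 fell (median -0.06), and upper quartile scaling gave 4 higher and 19 lower. Srsf5 had 337, 334 and 334 CPM with MRTX1719 and 509, 518 and 515 CPM with DMSO (-0.62 ± 0.021, edgeR adjusted p = 1.27e-59). Srsf6 (-0.43 ± 0.022) and Hnrnpdl (-0.50 ± 0.029) also fell, whereas the kinase gene Clk2 rose (0.53 ± 0.034). Hnrnpdl and Enoph1, named below, overlap each other in the annotation.

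The enzymes that make S-adenosylmethionine and polyamines shifted at single genes. Mat2a, which makes S-adenosylmethionine, fell to 169, 174 and 173 CPM with MRTX1719, against 319.7, 321 and 319.6 CPM with DMSO (-0.90 ± 0.024, edgeR adjusted p = 5.55e-72). Enoph1, an enzyme of methionine salvage downstream of Mtap, rose (0.70 ± 0.052). Over 17 genes of methionine salvage and the S-adenosylmethionine cycle 7 rose and 5 fell (median 0.04), with a median of -0.05 and 4 higher and 7 lower under upper quartile scaling. Sat1, which acetylates spermidine and spermine, had 197, 210.1 and 202 CPM with MRTX1719 and 79.4, 83.3 and 80.5 CPM with DMSO (1.32 ± 0.030, edgeR adjusted p = 5.53e-81). Polyamine genes in all had 7 higher and 6 lower of 14 (median 0.08): the decarboxylase gene Amd1 (0.55 ± 0.035), the antizyme inhibitor gene Azin1 (0.62 ± 0.026) and the transporter gene Atp13a3 (0.45 ± 0.029) rose, and Azin2 fell (-1.14 ± 0.094).

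Genes for amino acid supply and protein folding rose. Of 18 aminoacyl-tRNA synthetase genes 17 rose (94.4%) and 0 fell (median 0.33), and with upper quartile scaling 14 rose and 1 fell. The arginyl enzyme Rars had 414, 418 and 425 CPM with MRTX1719 and 278, 288 and 294 CPM with DMSO (0.55 ± 0.022, edgeR adjusted p = 1.60e-51), and Nars (0.47 ± 0.020), Iars (0.43 ± 0.020) and Tars (0.45 ± 0.022) were close to it. Of 21 ATF4 targets 13 rose (61.9%) and 6 fell (28.6%), with a median of 0.23. Phgdh, the first enzyme of serine synthesis, asparagine synthetase, Asns, and the folate enzyme Mthfd2 rose by 0.56 ± 0.021, 0.55 ± 0.023 and 0.62 ± 0.028. Aldh1l2, another mitochondrial folate enzyme, fell to 28.9 ± 1.4 CPM with MRTX1719, against 64 ± 1.57 CPM with DMSO (-1.15 ± 0.042).

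Of 20 genes of endoplasmic reticulum chaperones and the unfolded protein response 17 rose (85.0%) and 3 fell (median 0.31), and their summed level was 11000 CPM in the treated libraries and 8220 to 8420 CPM in the DMSO libraries. The chaperone gene Hspa5, also called BiP, had 3595, 3597 and 3633 CPM with MRTX1719 and 2391, 2495 and 2490.3 CPM with DMSO (0.55 ± 0.017, edgeR adjusted p = 1.32e-65). Calreticulin, Calr, stood at 1563, 1596 and 1569 CPM with MRTX1719 and 984, 1001 and 996 CPM with DMSO (0.67 ± 0.018), and the mannosidase-like gene Edem1 rose by 0.64 ± 0.027. Xbp1, a transcription factor of the same response, went the other way, with 124, 125 and 123 CPM with MRTX1719 and 202, 208 and 199.6 CPM with DMSO (-0.71 ± 0.026). Cytosolic heat shock genes rose at 10 and fell at 2 of 12 tested (median 0.29), with Hsp90aa1 at 0.66 ± 0.019, Hspd1 at 0.50 ± 0.020, Cryab at 0.66 ± 0.046, Dnaja1 at 0.27 ± 0.024 and the regulator Hsf1 at -0.33 ± 0.036. Lysosome and autophagy genes rose at 14 and fell at 4 of 20 (median 0.17; 11 and 6 under upper quartile scaling), including the cholesterol exporter gene Npc1 (0.86 ± 0.038), the proton pump gene Atp6v1h (0.65 ± 0.035), Lamp1 (0.45 ± 0.020) and the cathepsin gene Ctsl (0.39 ± 0.018).

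Cholesterol synthesis genes rose, and glycolysis genes fell. Of 22 cholesterol synthesis genes tested 18 rose (81.8%) and 1 fell (4.55%), with a median of 0.31. The sterol monooxygenase gene Msmo1 had 146, 149 and 152 CPM with MRTX1719 and 94.9, 94.7 and 95.5 CPM with DMSO (0.65 ± 0.031, edgeR adjusted p = 2.29e-43), and the isomerase gene Idi1 (0.71 ± 0.042) and the sterol regulator gene Insig1 (0.50 ± 0.031) rose with it. Tm7sf2, a sterol reductase, was the exception that fell (-1.21 ± 0.092). Fatty acid synthesis genes split evenly, 7 higher and 7 lower of 15 (median 0.03), with fatty acid synthase, Fasn, at 0.67 ± 0.023, Acly at 0.45 ± 0.022 and the desaturase gene Scd2 at -0.17 ± 0.018.

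Of 19 glycolysis genes 4 rose (21.1%) and 13 fell (68.4%), with a median of -0.17, and their summed level was 13900 to 14300 CPM with MRTX1719 and 18900 to 19400 CPM with DMSO. Gpi1, the glucose phosphate isomerase, fell to 613, 638 and 605 CPM with MRTX1719, against 1173, 1192 and 1197 CPM with DMSO (-0.94 ± 0.019, edgeR adjusted p = 4.28e-85). Pdk1, a kinase that restrains pyruvate entry into mitochondria, was at 123, 132 and 128 CPM with MRTX1719 and 275, 292 and 280.2 CPM with DMSO (-1.15 ± 0.026). The phosphoglycerate kinase gene Pgk1 (-0.75 ± 0.019) and the aldolase gene Aldoa (ENSMUSG00000030695.17, -0.67 ± 0.019) also fell. Another entry named Aldoa (ENSMUSG00000114515.3) went the other way at far fewer counts, 400 over the MRTX1719 libraries and 293 over the DMSO libraries. The hexokinase gene Hk2 rose (0.48 ± 0.033). Nuclear genes of oxidative phosphorylation rose at 18 and fell at 3 of 30 tested (median 0.12), by small amounts such as 0.26 ± 0.018 for Atp5b and 0.49 ± 0.034 for Ndufs1. These counts depended on the scaling, with 12 higher and 11 lower under upper quartile factors, where all genes tested had 4436 higher and 5942 lower. Ribosome biogenesis genes rose at 14 and fell at 5 of 25 (median 0.18, or 14 and 9 under upper quartile scaling). The processing factor gene Utp20 was at 0.86 ± 0.031, the helicase gene Ddx21 at 0.45 ± 0.024 and the polymerase I factor gene Ubtf at -0.50 ± 0.025. The summed level of this list went the other way, at 7030 to 7160 CPM with MRTX1719 and 7270 to 7350 CPM with DMSO.

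Interferon-stimulated genes and antigen presentation were lower with MRTX1719. Of 45 interferon-stimulated genes 5 rose (11.1%) and 31 fell (68.9%), with a median of -0.21. The virus tethering factor gene Bst2 had 151, 159.8 and 150.0 CPM with MRTX1719 and 274, 266 and 275 CPM with DMSO (-0.82 ± 0.025, edgeR adjusted p = 4.35e-64). Oasl2 (-0.88 ± 0.030) and the interferon regulatory factor gene Irf7 (-0.83 ± 0.037) fell by a like amount. Ifit2, a translation inhibitor of the antiviral response, was an exception and rose to 163, 162 and 162 CPM with MRTX1719, against 98.1, 97 and 103 CPM with DMSO (0.71 ± 0.030). Nucleic acid sensing genes had 4 higher and 11 lower of 18 (median -0.29), with the DNA sensor family gene Ifi203 at -0.66 ± 0.035, Tlr3 at -0.61 ± 0.049, the ribonuclease subunit gene Rnaseh2c at -1.3 ± 0.072 and the kinase gene Tbk1 at 0.53 ± 0.039.

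Of 20 class I presentation genes 4 rose and 15 fell (75.0%; median -0.20). The light chain gene B2m had 439.6, 434 and 432 CPM with MRTX1719 and 918, 889 and 878 CPM with DMSO (-1.04 ± 0.020, edgeR adjusted p = 7.90e-90). Among heavy chains, H2-D1 stood at 418, 429 and 402 CPM with MRTX1719 and 772, 792 and 793 CPM with DMSO (-0.92 ± 0.020), and H2-K1, added here after its values were seen, at 266 ± 11.2 CPM with MRTX1719 and 603 ± 25.6 CPM with DMSO (-1.18 ± 0.035). H2-Q4 fell as well (-1.06 ± 0.027); these genes are near-identical in parts, and reads may be shared among them. The list also holds the chaperone gene Calr, which rose as given above.

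Genes of ligands and receptors of immune signalling moved gene by gene. Of 9 checkpoint ligand genes tested 5 rose and 2 fell (median 0.06), but 3 rose without DMSO replicate 1 or without MRTX1719 replicate 1, with DESeq2, with upper quartile scaling, with no filter and in the 6 libraries alone. Pvr, the CD155 ligand of TIGIT, had 251, 252 and 260.2 CPM with MRTX1719 and 109, 112 and 113 CPM with DMSO (1.19 ± 0.027, edgeR adjusted p = 4.65e-81), and the related ligand gene Nectin2 rose by 0.39 ± 0.035. Tnfrsf14 fell (-0.65 ± 0.093), and Ceacam1 rose at a low level (2.27 ± 0.34). Chemokines and cytokines had 6 higher and 11 lower of 20 (median -0.14): the macrophage growth factor gene Csf1 (-0.59 ± 0.022), Cx3cl1 (-0.31 ± 0.030) and the monocyte chemokine gene Ccl2 (-0.19 ± 0.020) fell. Ccl9 rose to 27.1, 28.5 and 27.2 CPM with MRTX1719, against 7.44, 7.04 and 7.08 CPM with DMSO (1.95 ± 0.076). The list of NKG2D ligands and death receptors, which also holds interferon receptor genes, had 3 higher and 4 lower of 10 (median -0.04). The NKG2D ligand gene Ulbp1 was at -0.28 ± 0.045, the interferon gamma receptor gene Ifngr2 at 0.44 ± 0.049 and the TNF receptor gene Tnfrsf1b at -0.25 ± 0.045.

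Immediate early genes, nuclear RNAs and histones, which can vary with handling and RNA quality, also moved. Of 19 immediate early genes 7 rose and 10 fell (median -0.17). Egr1 had 78.5, 76.6 and 73.5 CPM with MRTX1719 and 269, 268 and 262 CPM with DMSO (-1.8 ± 0.026, edgeR adjusted p = 5.56e-106), Ier2 was at -1.28 ± 0.040, and Fosl1 rose by 0.73 ± 0.034. Nuclear retained and noncoding host RNAs had 3 higher and 7 lower of 13 (median -0.46), with Snhg1 at -1.0 ± 0.037, Gas5 at -0.46 ± 0.023, Snhg8 at 0.88 ± 0.039 and Snhg3 at 1.47 ± 0.070. Histone genes of the replication-dependent class, whose transcripts mostly lack a poly(A) tail, had 3 higher and 5 lower of 13 tested (median 0.20, but -0.50 with a filter at 1 CPM and -0.34 in the 6 libraries alone). Their summed level was 439 to 444 CPM with MRTX1719, against 1020 to 1070 CPM with DMSO. The linker histone gene H1f0, which stands in the list although its transcripts are polyadenylated, held 342 ± 5.25 CPM of this with MRTX1719 and 839 ± 19 CPM with DMSO (-1.29 ± 0.020). H1f2 (-1.56 ± 0.036) and H2bc4 (-0.82 ± 0.043) fell too, and H2ac8 rose (1.01 ± 0.20). Whether handling or RNA quality has a part in the other results was not tested.

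The remaining lists were smaller or mixed. Apoptosis regulators had 8 higher and 8 lower of 19 (median 0.13), with Apaf1 at 0.68 ± 0.041, Bcl2l1 at 0.51 ± 0.033 and Bcl2 at -0.68 ± 0.043, so that of the named pair of survival genes Bcl2 fell and Bcl2l1 rose. Genes of endogenous retroviral restriction and silencing rose at 12 (80.0%) and fell at 1 (6.67%) of 15 (median 0.24), including the maintenance methyltransferase gene Dnmt1 (0.58 ± 0.023), the demethylase gene Kdm1a (0.53 ± 0.028) and Suz12 (0.37 ± 0.026), and the exception was Dnmt3a (-0.39 ± 0.034). Of 7 melanosome genes 2 were tested: Mitf rose (0.78 ± 0.14) and Pmel, the mouse gene for gp100, fell at a low level, to 1.01, 1.07 and 0.579 CPM with MRTX1719 against 2.05, 2.27 and 1.86 CPM with DMSO (-1.19 ± 0.23). Whether these reads hold RNA of the introduced gp100 was not tested. Pmel also overlaps the tested genes Cdk2, Dgka and Rab5b in RefSeq, so part of its reads may be shared.

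**Figure D3:**
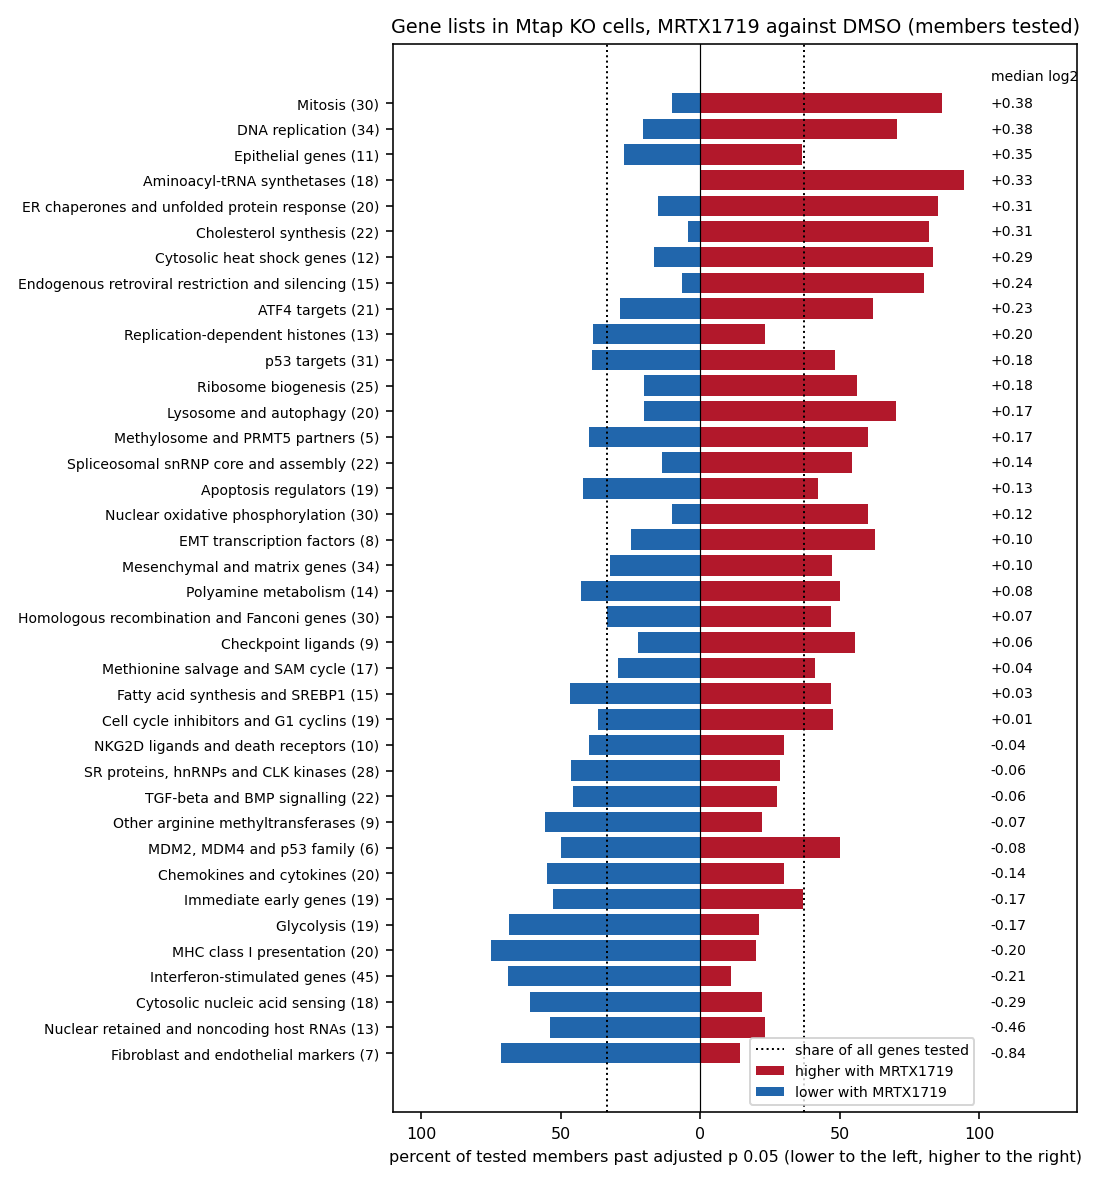
For each gene list with at least 5 members tested (number in brackets), the bars give the percent of tested members past an adjusted p of 0.05, higher with MRTX1719 to the right and lower to the left, with the median log2 fold change at the far right; dotted lines mark 37.0% and 33.6%, the shares over all genes tested. The lists run from mitosis and DNA replication, both at a median of 0.38, to fibroblast and endothelial markers at -0.84.

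Next, the KO response was set against that of wild-type cells at the same dose and time. In wild-type cells 1117 genes changed with MRTX1719 (7.53%), 537 higher (3.62%) and 580 lower (3.91%), and 18 of them at least 2-fold (0.121%), from 2 treated libraries. The difference between the lines, KO effect minus wild-type effect, passed at 8627 genes (58.2%), with 4494 higher (30.3%) and 4133 lower (27.9%). Upper quartile scaling gave 3528 higher and 5069 lower, so the share of higher ones was 41.0% there against 52.1%. Without 1 of the 2 treated wild-type libraries the wild-type count was 433 (without replicate 1) or 510 (without replicate 3); the lone library was then assumed to vary like the libraries of the other groups.

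Genes named above show the contrast. For Islr wild-type cells had 47.2 ± 0.122 CPM with MRTX1719 (n = 2) and 54.9 ± 1.0 CPM with DMSO, an effect of -0.22 ± 0.044 beside -3.62 ± 0.040 in KO cells, and the difference was -3.4 ± 0.063 (edgeR adjusted p = 2.86e-90). For Cdkn1a the wild-type values were 44.8 ± 0.577 CPM with MRTX1719 and 52.5 ± 1.55 CPM with DMSO (-0.23 ± 0.047), opposite in sign to KO cells, with a difference of 1.81 ± 0.080 (edgeR adjusted p = 3.22e-46). Mdm4 was at 112 ± 2.09 CPM with MRTX1719 and 106 ± 1.19 CPM with DMSO in wild-type cells, and the difference was -1.19 ± 0.049 (edgeR adjusted p = 5.24e-49). Prmt5 had a difference of 0.08 ± 0.043 that did not pass (edgeR adjusted p = 0.081). In 973 genes that changed in both lines the direction was the same for 552 and opposite for 421, of which 254 were higher in KO and lower in wild-type cells and 167 the reverse.

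Mitosis, interferon-stimulated and heat shock genes differed between the lines. Mitosis genes had 26 higher and 3 lower members in KO cells, against 0 higher and 14 lower in wild-type cells (medians 0.38 and -0.09), and the difference was positive and past the threshold for 27 of 30 and negative for 0. Interferon-stimulated genes had 5 higher and 31 lower in KO cells, against 21 higher and 0 lower in wild-type cells (medians -0.21 and 0.12), and the difference was negative for 32 of 45 and positive for 1. Heat shock genes had 10 higher and 2 lower in KO cells, against 0 and 7 in wild-type cells, and 11 of 12 differences were positive. Over all genes the shares of differences were 30.3% higher and 27.9% lower, as given above. Class I genes had 4 higher and 15 lower of 20 in KO cells, against 0 higher and 6 lower in wild-type cells (medians -0.20 and -0.04). In wild-type cells 14 of them did not pass. The difference was negative for 12 of 20 and positive for 3.

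**Figure D4:**
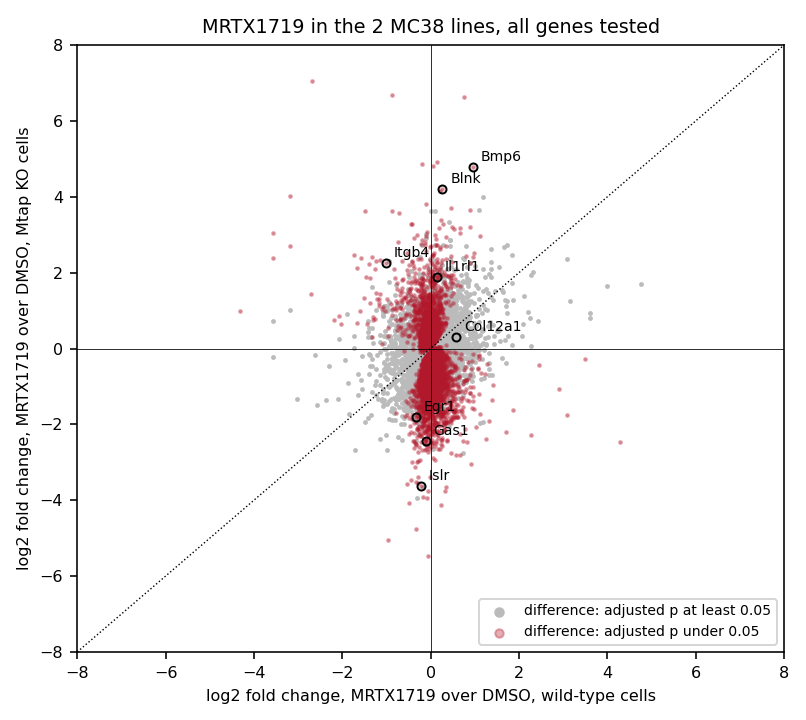
Log2 fold change with MRTX1719 over DMSO for each gene tested, in Mtap KO cells (vertical axis) and in wild-type cells (horizontal axis), red where the difference between the lines passed an adjusted p of 0.05, with the dotted line marking equal effects. The points stretch along the vertical axis, with Bmp6 at 4.78 in KO and 0.95 in wild-type cells and Islr at -3.62 in KO and -0.22 in wild-type cells.

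Last, MRTX1719 was compared with GSK3326595 in KO cells, a single pair of compounds at the same 0.5 uM and 5 days. The 2 differed at 7889 genes (53.2%), 4201 higher (28.3%) and 3688 lower (24.9%) with MRTX1719, and 388 of them at least 2-fold (2.62%). Upper quartile scaling gave 3355 higher and 4467 lower, 42.9% higher against 53.3%. Against DMSO 10464 genes changed with MRTX1719 and 7830 with GSK3326595 (52.8%), and these comparisons share the DMSO libraries.

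For Bmp6 and Islr, described first above, GSK3326595 gave levels between those with MRTX1719 and those with DMSO. Bmp6 was at 16.6, 19.7 and 18.1 CPM with MRTX1719 and 3.42, 3.89 and 4.66 CPM with GSK3326595 (2.18 ± 0.10, edgeR adjusted p = 6.18e-44), against 0.649 ± 0.121 CPM with DMSO. Islr was at 18, 18.6 and 17.1 CPM with MRTX1719 and 68, 58.8 and 61.2 CPM with GSK3326595 (-1.8 ± 0.047, edgeR adjusted p = 4.08e-71), against 219.9 ± 3.99 CPM with DMSO. Both sets of treated libraries lay on the same side of DMSO and did not overlap each other. Blnk (2.01 ± 0.17), Usp17la (1.71 ± 0.14) and Rasgef1a (1.29 ± 0.10) were higher, and Tle2 (-1.5 ± 0.12) and Adgrl1 (-1.34 ± 0.065) lower, with MRTX1719 than with GSK3326595.

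Other genes were closer to DMSO with GSK3326595, or had another order. The muscle-type cytochrome oxidase gene Cox6a2 averaged 7.45 ± 0.696 CPM with MRTX1719, 2.36 ± 0.0916 CPM with GSK3326595 and 1.75 ± 0.064 CPM with DMSO, and Fam180a averaged 6.07 ± 0.285, 2.14 ± 0.208 and 2.29 ± 0.124 CPM in the same order, so both stood apart with MRTX1719. Fam180a did not pass for GSK3326595 against DMSO (-0.11 ± 0.18, edgeR adjusted p = 0.658). The synaptic gene Unc13a (-1.8 ± 0.069) and Fgf11 (-1.48 ± 0.067) were lower with MRTX1719 than with GSK3326595. Lum went opposite ways, at 7.64 ± 0.172 CPM with MRTX1719, 20.6 ± 1.42 CPM with GSK3326595 and 14.1 ± 0.724 CPM with DMSO, a difference of -1.44 ± 0.074 between the compounds (edgeR adjusted p = 8.36e-39). For Krt8, at 58.4 ± 0.857 CPM with MRTX1719 and 60.1 ± 1.6 CPM with GSK3326595, a difference of -0.04 ± 0.040 did not pass (95% interval -0.12 to 0.037, edgeR adjusted p = 0.395). Prmt5 differed by 0.00 ± 0.030 (95% interval -0.056 to 0.061, edgeR adjusted p = 0.947), which did not pass either.

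The compounds differed at most glycolysis and interferon-stimulated genes. For glycolysis the medians against DMSO were -0.17 with MRTX1719 and 0.09 with GSK3326595, and 2 of 19 members were higher and 16 lower with MRTX1719 than with GSK3326595 (median -0.39). Pdk1 averaged 128 ± 4.4 CPM with MRTX1719, 247 ± 3.79 CPM with GSK3326595 and 282 ± 8.59 CPM with DMSO, with a difference of -0.95 ± 0.026 between the compounds (edgeR adjusted p = 6.32e-69). Interferon-stimulated genes were lower against DMSO with both, at medians of -0.21 with MRTX1719 and -0.44 with GSK3326595, and 28 of 45 were higher and 3 lower with MRTX1719 than with GSK3326595 (median 0.16). Ifit2 differed by 0.61 ± 0.029 (edgeR adjusted p = 4.31e-42). For Irf7 the difference of -0.00 ± 0.040 did not pass (95% interval -0.082 to 0.074, edgeR adjusted p = 0.941). Endoplasmic reticulum genes had 18 of 20 members higher with MRTX1719 (median 0.25), and tRNA synthetase genes 15 of 18 (median 0.19).

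**Figure D5:**
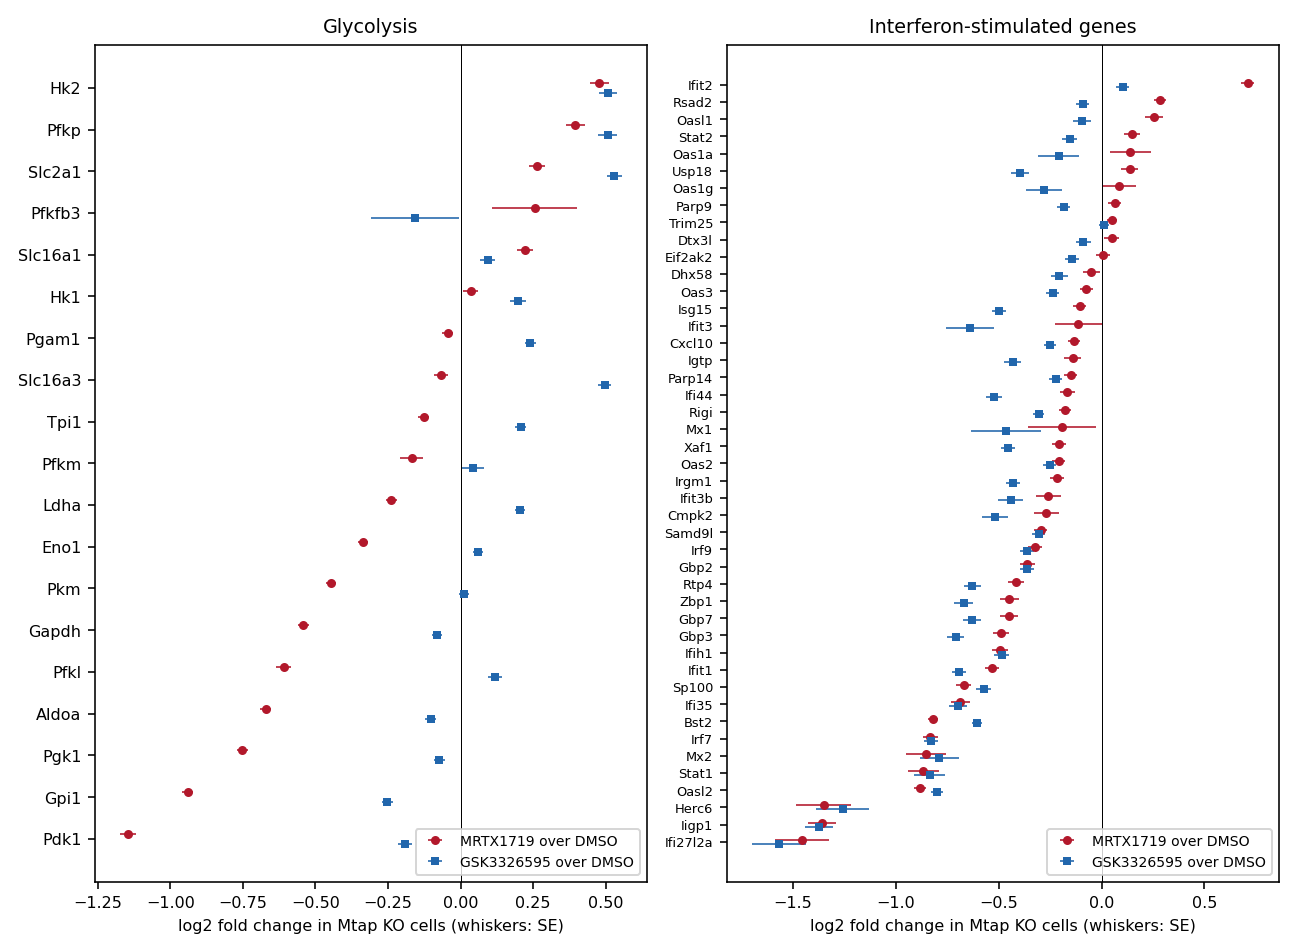
Log2 fold change against DMSO in Mtap KO cells for each member tested of 2 lists, glycolysis (left) and interferon-stimulated genes (right), with MRTX1719 as red circles and GSK3326595 as blue squares; whiskers are standard errors and both compounds share the DMSO libraries. Most glycolysis genes stand further left with MRTX1719, Pdk1 at -1.15 against -0.19 with GSK3326595, and most interferon-stimulated genes stand further right.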

How the data were processed

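Poly(A) RNA was sequenced from 17 MC38 libraries, of which 6 enter the main comparison. The authors deposited raw counts per gene, whole numbers with no normalization, and a table of normalized signal, which equals those counts divided by 1 size factor per library and was used here only for gene symbols. Matching within 1e-06 tied 15629 of 15629 entries of the authors' signal table to identifiers of the count table, other identifiers were named from a supplied table, and 4144 of 56562 had no name. The submitters' processing notes name GRCm39 (mm39) as the build and, as tools, DESeq 1.18.0, Bowtie2 2.1.0 and TopHat2 2.0.10. No source used here states the counting program, its annotation or its strand setting. Genes that overlap, lie antisense or have near-identical copies may therefore share reads. Of 192 genes named, 38 overlap another tested gene in RefSeq (GRCm38.p6), among them Bmp6 with Txndc5, Tigit with Zbtb20 and Ogn with Cenpp.

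The deposited counts were fitted in R 4.3.3 with edgeR 4.0.16 (quasi-likelihood F test with robust estimation, TMM factors, low counts removed with filterByExpr), in 1 fit of 17 libraries without covariates and a Benjamini-Hochberg threshold of 0.05 over the 14835 genes left. Replicates differed beyond sampling noise (chi-square per gene 1.40 to 2.83), and the common biological coefficient of variation was 0.0198. The script was tested on simulated data. DESeq2 1.42.0, limma 3.58.1 (voom), other scalings, filters, a replicate block, fewer libraries and left-out libraries were alternatives. The members and lists were chosen with earlier results of these data known. Genes were named by rule: Mtap and Prmt5, the 10 largest changes each way at 5 CPM or more in the higher group with libraries that do not overlap, the 5 each way at 200 CPM or more, up to 4 members of each list by p plus any leading exception, and the 6 largest each way in the difference between lines and between inhibitors. H2-K1 and Gdf15 were added after their values were seen, and Krt18, Tjp1, Jup and the undetected cell type markers stand outside the rule. Some genes that the rule names are not reported here. The T cell files were not used here. In the treatment field of the labels the last digit of GSK3326595 differs for replicates 2 and 3. The titles agree across the 3 libraries, which were taken as 1 compound.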

Additional observations from a re-analysis of the deposited data

Results flagged for a closer look

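The effect of MRTX1719 differed between the lines, KO minus wild-type, at 8627 genes by the edgeR quasi-likelihood test of the difference itself. Of the 6 most positive differences with at least 5 CPM in 1 of the groups, Blnk was at 3.93, Bmp6 at 3.83 and Mmp10 at 3.01 on the log2 scale. Rab26os, named for the strand opposite Rab26 but overlapping neither Rab26 nor a tested gene in RefSeq, was at 3.62. It had 5.48, 5.41 and 5.83 CPM with MRTX1719 and 1.08, 1.5 and 0.952 CPM with DMSO in KO cells. In wild-type cells it had 0.132 ± 0.0804 CPM (n = 2) and 0.353 ± 0.196 CPM. Itgb4, the integrin beta 4 gene of hemidesmosomes, was at 3.26. It had 6.2 ± 1.27 CPM with MRTX1719 and 1.32 ± 0.0561 CPM with DMSO in KO cells. The wild-type values were 0.208 ± 0.134 CPM (n = 2) and 0.413 ± 0.235 CPM. Some of these differences rest on few wild-type counts with MRTX1719 and DMSO. These were 7 and 26 for Rab26os, 11 and 31 for Itgb4, and 24 and 17 for Bmp6.

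Wdr49 had the most positive fitted difference of these, 3.96, but this depends on the prior count. In KO cells it had 6 counts over the MRTX1719 libraries and 0 over the DMSO libraries. With the 0 set to a floor of 3 counts it was 1.91-fold higher with MRTX1719, a ratio that leaves out the counting error of the 6. In wild-type cells it was at 7.09 ± 0.946 CPM with MRTX1719 (n = 2) and 6.13 ± 0.339 CPM with DMSO.

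Of the 6 most negative differences under the same limit 5 are given here: Islr (-3.40), Aldh1a1 (-2.75), Chrd (-2.61), Inmt (-2.59) and Nrep (-2.54). Inmt, a methyltransferase gene, had 0.337 ± 0.0856 CPM with MRTX1719 and 2.81 ± 0.164 CPM with DMSO in KO cells, and 8.14 ± 0.656 CPM (n = 2) and 10.9 ± 0.449 CPM in wild-type cells. Nrep was near the floor in KO cells, at 0.109 ± 0.070 CPM with MRTX1719 and 0.756 ± 0.199 CPM with DMSO. Aldh1a1 had few counts in wild-type cells, 17 with MRTX1719 and 20 with DMSO.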

How the results depend on the processing

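Of 3035 values of named genes under the alternatives, 3029 kept their direction and side of the threshold, 6 no longer passed and 0 reversed; the 6 were Krt19 without KO MRTX1719 replicate 1, the difference between lines of Wdr49 without each of 4 libraries, and that of Aldh1a1 without wild-type MRTX1719 replicate 1 (edgeR adjusted p = 0.0519). Leaving out each library in turn gave 9887 to 10112 changed genes with MRTX1719 in KO cells, 7968 to 8458 for the difference between lines, 7160 to 7527 for MRTX1719 against GSK3326595, 7179 to 7463 for GSK3326595 against DMSO and 433 to 912 in wild-type cells. A test against a log2 fold change of 0.5 (glmTreat) in place of 0 gave 2908 in KO cells, by construction. Counts with DESeq2 (9868), voom (10420), another scaling, another filter or the 6 libraries alone (10096) stayed within 1.5 times, but upper quartile scaling moved the median of all genes to -0.068 from 0.022 and the split to 4436 higher and 5942 lower. With the replicate number as a block the counts were 10415, 8507, 7813, 1010 and 7779 for KO cells, the difference, the 2 compounds, wild-type cells and GSK3326595. Deviations of same-numbered KO libraries from their group means correlated at -0.014, 0.020 and 0.022. Such small values show no shift shared by number, but cannot tell how the replicates were set up. Medians near 0 changed sign under upper quartile scaling for cell cycle inhibitors and G1 cyclins, recombination, polyamine, fatty acid synthesis and checkpoint ligand genes; that of the first also did so without DMSO replicate 1, with no filter and in the 6 libraries alone (-0.03 in each), and that of fatty acid synthesis without MRTX1719 replicate 2 (-0.01). Upper quartile scaling also gave 3 interferon-stimulated genes higher and 5 snRNP genes lower, and the 6 libraries alone gave 7 oxidative phosphorylation genes lower. In leaving out 1 of the 2 treated wild-type libraries, the spread comes from the other groups. Genes at a few counts have wide errors at this depth.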
